A study of Mus musculus with 20 samples.

Results

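The lowest exposure condition, I0-E0, was compared with unexposed N2A cells in 6 of the 20 RNA-seq libraries of the series, the 3 libraries labelled I0-E0 and the 3 negative controls (NC) of batch 1, chosen by their labels alone. N2A, or Neuro2A, is a mouse neuroblastoma line, cultured here at 37 °C and seeded into 384-well plates. For I0-E0, a femtosecond-pulsed near-infrared laser was scanned over a whole well through a 20X objective with an average power of 20 mW and a pixel dwelling time of 2 µs, which gives an average intensity of 47.7 mW/µm2 and a fluency, the energy deposited per area, of 9.54 J/cm2. Control wells received no laser and were otherwise treated alike, and all cells were lysed 1 h after exposure. The 3 more exposed groups of the batch, used below only where named, received 47.7 J/cm2 (I0-E2) or 95.4 J/cm2 (I0-E4) at the same intensity by longer dwelling, or 47.7 J/cm2 at 239 mW/µm2 (I2-E2), with 3 libraries each. The study describes the controls as 3 wells lysed at the same time. No source used here says whether the libraries of a group came from separately grown cultures. The p-values therefore measure the spread between libraries, which may be technical.

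Cells answer light, heat and mechanical stress on different clocks. Antioxidant genes driven by NRF2 are part of such answers, not necessarily of the first hour. Within an hour the first genes to be induced are usually immediate-early transcription factors such as Fos and Egr1 and the phosphatases that switch ERK signalling off again. Heat shock chaperones driven by HSF1 can rise in that time too. Splicing can respond on the same time scale. Separately, alternative exons of genes for RNA-binding proteins often lead to transcripts that are degraded by nonsense-mediated decay. By this means such proteins can limit their own level.

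The total estimated count of the 6 libraries lay between 6416194 and 8266513. One library stood apart. In I0-E0 replicate 3, 20042 genes had at least 1 read, against 16040 to 17226 in the other 14 libraries of the batch, and at the depth of the smallest library it would still have held 18918 genes against 15741 to 16584. It held 1373 genes seen in no other library, 968 of them with exactly 1 read and none with more than 7, and 696 olfactory receptor genes with a read against 396 to 496. Gm10800, a repeat-like gene of which only 58.0% of the 31-base words occur in no other gene, reached 1713 CPM (read counts scaled for library size, the unit of all levels below) in I0-E0 replicate 3, against 60.8 and 78.8 CPM in replicates 1 and 2, 36.2 to 60.6 CPM in NC and 17.6 to 433 CPM over all other 14 libraries. The cause was not tested, and the numbers of genes, transcripts and isoform calls past a threshold were also obtained without this library.

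**Figure D1:**
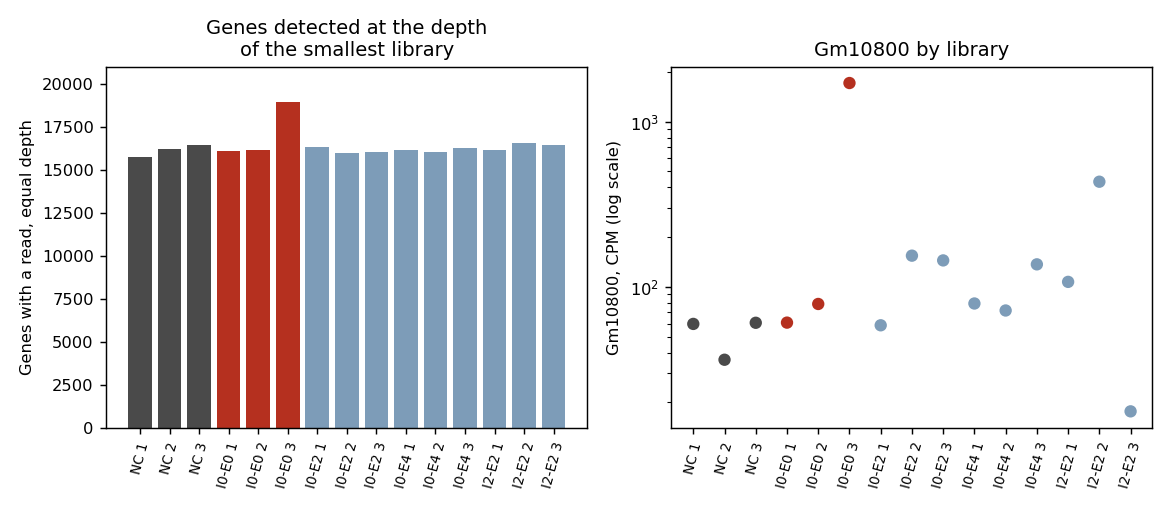
Left, number of genes with a read expected at the depth of the smallest library, for each of the 15 libraries of batch 1 (bars, axis from 0). Right, CPM of Gm10800 on a log scale. I0-E0 replicate 3 reached 18918 genes and 1713 CPM, above the other 14 libraries in both.

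No gene set I0-E0 apart from NC at the threshold of the test. Of 12296 genes with enough reads, 0 (0%) passed an adjusted p (FDR) of 0.05 in edgeR's quasi-likelihood test in either direction, limma-voom called 0 and DESeq2 called 1. The DESeq2 call was Fam220a (FDR 5.67e-04 in DESeq2), a gene that shares its symbol with another. At an unadjusted p under 0.05, edgeR listed 226 genes as higher (1.84%) and 187 as lower in I0-E0 (1.52%), together 3.36% of the genes tested. The log2 fold change was above 0 for 51.4% of genes, and its median was 0.00354. Without I0-E0 replicate 3 the test called 0 genes, with 157 higher and 167 lower at an unadjusted p under 0.05.

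The width of the intervals shows what these libraries could resolve. The study drew a line at a log2 fold change of 0.6 in either direction. For the 9089 genes with at least 10 CPM, the 95% interval of the log2 fold change lay wholly inside that line for 8866 (97.5%) and inside a log2 fold change of 1 for 99.4%. The central 90% of their fold changes ran from -0.16 to 0.17 on the log2 scale, and the median standard error was 0.0917. For the 1851 genes of 1 to 5 CPM the interval fell inside 0.6 for 74 only, so that a change of that size was not detectable for most rarely expressed genes.

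**Figure D2:**
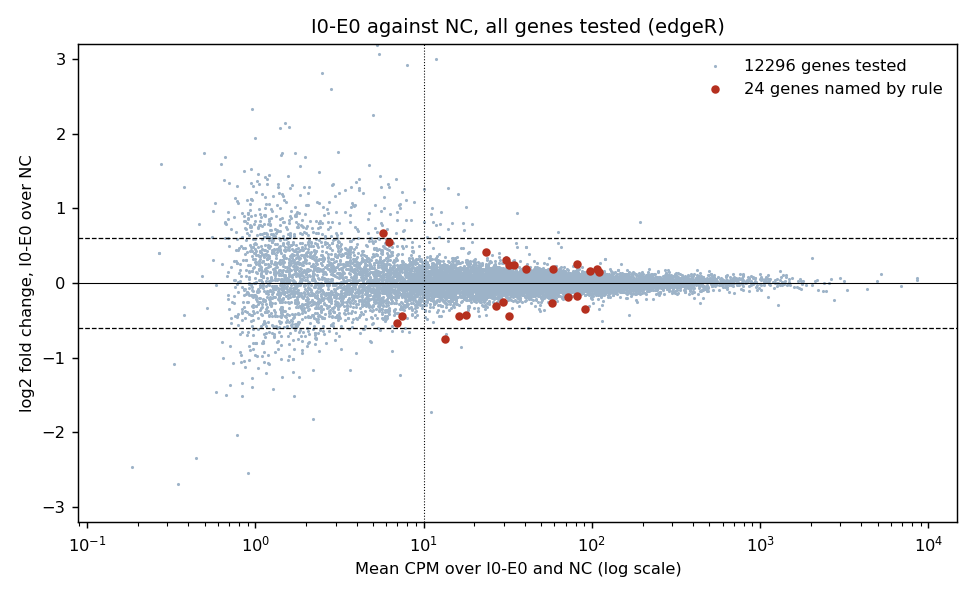
Log2 fold change of I0-E0 over NC against the mean CPM of both groups (log scale), 1 point per gene, with the 24 genes named by rule in red. Dashed lines mark -0.6 and 0.6, the dotted line 10 CPM, and 13 genes lie outside the plotted range. The cloud narrows from left to right, and right of 10 CPM 97.5% of genes have a 95% interval inside the dashed lines.

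The genes named next were taken by rule, as the 12 of smallest p in each direction among eligible genes. Genes with a Gm number, a Rik clone name, a -ps pseudogene name or a shared symbol were left out. Eligible were genes of at least 5 CPM in which the I0-E0 and NC values did not overlap and which share few sequences with other genes. Such a lack of overlap was found above NC for 4.68% and below NC for 4.36% of the genes tested. Being chosen for this, the 24 genes are a description only, genes that share sequence or have fewer reads being left out even where their p was smaller, and each had an FDR of 0.9995 in edgeR's test.

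Among the 12 higher genes were structural and membrane proteins. Lmnb2, the lamin B2 gene (chromosome 10, 80901203 to 80918245, minus strand, GRCm38), had 92.3, 87.5 and 85.8 CPM in the I0-E0 libraries and 74.6, 68.0 and 80.3 CPM in NC (log2 fold change 0.26 ± 0.0674 SE). The gap between the lowest I0-E0 and the highest NC library was smaller than the spread among the NC libraries. In the more exposed groups the mean level was 82.1 ± 3.73 CPM (I0-E2), 85.1 ± 4.78 (I0-E4) and 91.8 ± 2.75 (I2-E2; SD, n = 3 each), which share the NC libraries as their control. Slc2a1, the glucose transporter GLUT1, was measured at 35.6, 32.4 and 34.5 CPM against 29.6, 27.9 and 25.4 (0.30 ± 0.0926). Ckap4, a protein of endoplasmic reticulum sheets, had 110.7, 110.9 and 120.3 CPM against 103.8, 93.8 and 102.4 (0.19 ± 0.0635). Vil1, which encodes the actin bundler villin, had 8.81, 6.85 and 6.73 CPM against 4.81, 5.94 and 4.48 (0.55 ± 0.182). The largest fold in this direction belonged to Avpi1, with 7.93, 6.06 and 6.97 CPM against 3.37, 4.36 and 5.57 (0.67 ± 0.215), a gene with few reads whose NC libraries spread widely.

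Several higher genes had small differences with tight replicates. Ncs1, a neuronal calcium sensor, had 116.9, 113.2 and 115.0 CPM in I0-E0 and 104.8, 105.4 and 102.1 CPM in NC, a log2 fold change of 0.14 ± 0.0515. Ncdn, or neurochondrin, had 106.2, 103.3 and 98.3 CPM against 92.6, 94.0 and 87.8 (0.16 ± 0.0551). Txndc11, a thioredoxin-domain protein of the endoplasmic reticulum, had 43.8, 43.7 and 42.3 CPM against 38.5, 37.4 and 37.9 (0.19 ± 0.0684), with all libraries of a group within a narrow band. The remaining 4 were Mageh1, Tm2d2, Tsen54 (a subunit of the tRNA splicing endonuclease) and Abhd16a (a phosphatidylserine lipase), with log2 fold changes of 0.42, 0.19, 0.25 and 0.24.

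Among the 12 lower genes, Smpd4, a neutral sphingomyelinase (chromosome 16, 17619354 to 17644828, plus strand), had the smallest p of all 24, 5.86e-04 unadjusted in edgeR's test, with 55.0, 54.4 and 48.9 CPM in I0-E0 against 61.4, 65.2 and 64.95 in NC (log2 fold change -0.27 ± 0.0650). Ptbp2, a repressor of neuronal exons (chromosome 3, 119718742 to 119784466, minus strand), had 73.8, 83.4 and 82.2 CPM against 90.8, 104.5 and 109.5 (-0.35 ± 0.0898). Dock9, an activator of the GTPase Cdc42, showed the largest fold, with 11.6, 8.70 and 9.59 CPM against 13.8, 17.2 and 19.3 (-0.75 ± 0.223). In none of the 3 did the groups overlap. In the 9 more exposed libraries the mean lay between those of I0-E0 and NC, at 57.8 ± 2.25 CPM for Smpd4, 84.98 ± 7.92 for Ptbp2 and 13.1 ± 3.67 for Dock9 (SD). The same held for 11 of the 12 lower and 10 of the 12 higher genes. Genes chosen for a gap between I0-E0 and NC tend to show this by the choice alone, so it is no second test.

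Lztr1, an adaptor that marks Ras-family proteins for ubiquitination, had 29.9, 31.5 and 21.0 CPM in I0-E0 against 40.8, 34.9 and 36.3 in NC. Replicate 3 was the low library here, and without it the log2 fold change moved from -0.44 to -0.29. Ctns, the lysosomal cystine exporter, had 5.66, 5.40 and 5.85 CPM against 7.58, 8.24 and 8.82 (-0.54 ± 0.186), and Gmeb2, a DNA-binding cofactor of the glucocorticoid receptor, 26.8, 27.7 and 26.2 CPM against 30.7, 31.7 and 33.9 (-0.25 on the log2 scale). Both kept a clear gap between the groups. Emc3, a subunit of the membrane protein insertase of the endoplasmic reticulum, had 76.0, 77.7 and 76.1 CPM against 86.7, 87.1 and 84.8 (-0.17 ± 0.0607), the smallest fold of the 12. The others were Ogfrl1, Trim39, Lrrn3, Pinx1 and the transcription factor Tox.

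**Figure D3:**
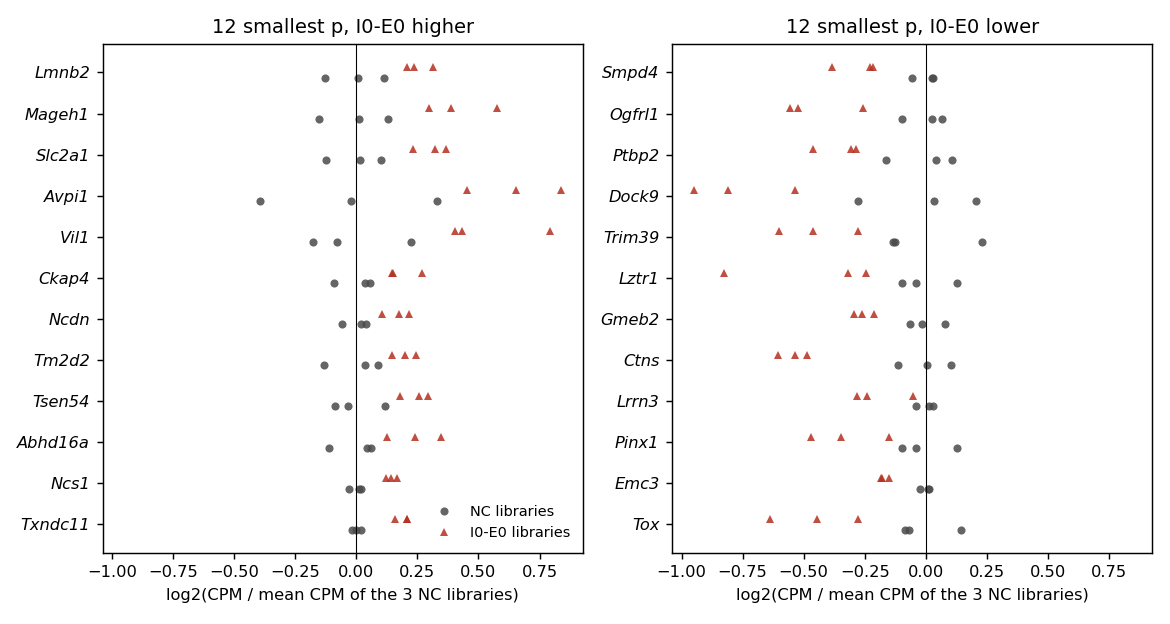
Log2 of CPM over the mean CPM of the 3 NC libraries for the 24 genes named by the rule on level, overlap, shared sequence and symbol, 12 in each direction. Triangles are I0-E0 libraries, circles NC libraries. The groups do not overlap in any gene because the genes were chosen so, the log2 fold changes run from -0.75 to 0.67, and 0 of the 24 passed FDR 0.05.

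To describe pathways rather than single genes, 798 genes of 30 lists were followed. Of these, 688 had enough reads, 0 passed FDR 0.05, and 23 (3.34%) had an unadjusted p under 0.05 in edgeR's test, 9 higher and 14 lower, against 3.36% of all genes tested. For 626 of the 688 the 95% interval lay inside a log2 fold change of 0.6. The medians of the 24 lists with at least 3 tested genes ran from -0.09 to 0.06.

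Most light and temperature sensors had too few reads for a test. Of 23 light and temperature sensors, 9 were tested, and Opn4, Opn5 and Trpv1 were among the other 14, of which 4 had 0 reads in all 6 libraries. Opn3, the opsin found outside the eye, had 3.65, 2.37 and 2.99 CPM against 2.53, 3.27 and 5.10 in NC, which overlap. Sag, which encodes the visual arrestin, had 6.29, 5.93 and 9.09 CPM against 3.61, 4.24 and 4.64 (log2 fold change 0.78 ± 0.213, unadjusted p = 0.00200 in edgeR), with 94.2% of its 31-base words in no other gene. Trpv2, a heat-gated cation channel, had 51.8, 47.8 and 49.4 CPM against 42.8, 44.0 and 45.2 (0.18 ± 0.0724). Neither passed FDR 0.05. The circadian clock list had 8 of 20 tested genes above 0 and 12 below, with a median of -0.03, and the light-inducible Per1 stood at 9.81, 9.22 and 9.22 CPM against 8.90, 8.96 and 8.97.

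Among the immediate-early transcription factors no gene was higher at an unadjusted p under 0.05. Fos, the standard readout of recent stimulation, had 6.54, 6.19 and 6.73 CPM in I0-E0 and 6.26, 7.03 and 6.19 CPM in NC, with a 95% interval of -0.35 to 0.34 for the log2 fold change. Of 28 tested members of this list 16 lay above 0 and 12 below, with a median of 0.02, and 21 had an interval inside 0.6. At an unadjusted p under 0.05, 0 were higher and 3 lower, where 1.84% and 1.52% of all genes tested were. Those 3 were Egr1 with 15.7, 17.0 and 15.8 CPM against 18.4, 21.4 and 21.2, Klf4 with 12.5, 12.8 and 13.9 CPM against 15.9, 16.8 and 14.7, and the neuronal factor Npas4 with 1.26, 1.45 and 1.87 CPM against 2.29, 2.18 and 3.56. In all 3 the I0-E0 libraries were below NC, and none passed FDR 0.05.

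The ERK feedback list held 3 of its 19 tested genes at an unadjusted p under 0.05, all higher, against 1.84% of all genes tested, and had a median of 0.02. Phlda1 had 43.7, 32.9 and 37.2 CPM against 31.04, 32.2 and 28.5 (0.31 ± 0.107), with 69.2% of its 31-base words in no other gene. The phosphatases Dusp4 (235, 228 and 215 CPM against 224, 194 and 193) and Dusp8 (36.5, 33.9 and 37.7 against 35.7, 29.6 and 25.8) overlapped between the groups. Dusp6 and Spry4, the usual markers of ERK output, had log2 fold changes of -0.02 and -0.07.

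Heat shock chaperones did not separate the groups. Of 32 tested members 17 lay above 0 and 15 below, the median was 0.01, 0 had an unadjusted p under 0.05 and 31 had an interval inside 0.6. The abundant chaperone Hsp90ab1 had 5200, 4862 and 4879 CPM against 4814, 4978 and 4893, with 86.8% of its 31-base words in no other gene. The inducible Hspa1a had 0 reads in all 6 libraries, which allows up to 3 reads a library by counting error alone, and Hspa1b had 1 read at most. A difference within so few reads was not detectable at this depth, and no library of either group held more reads of these genes.

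For oxidative stress, 33 of 35 genes were tested, all 33 with an interval inside 0.6. The NRF2 targets Nqo1 (8.30, 7.25 and 6.97 CPM against 8.18, 6.90 and 7.11) and Txnrd1 (429.9, 430.7 and 409.2 against 406.6, 409.6 and 399.8) had log2 fold changes of 0.02 and 0.06. Catalase, Cat, was below NC in all 3 libraries, with 20.5, 19.5 and 18.6 CPM against 24.5, 22.7 and 21.0, at an unadjusted p of 0.0680 in edgeR.

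Genes of DNA damage showed no common direction. The p53 list had 19 of 26 tested genes above 0 with a median of 0.04, and the DNA repair list 15 of 43 above 0 with a median of -0.03. The checkpoint kinase Atr had 51.3, 62.9 and 56.4 CPM against 63.6, 72.8 and 65.1 (-0.24 ± 0.0940), and Rrm2b, the p53-inducible ribonucleotide reductase subunit, 20.8, 24.1 and 20.1 CPM against 25.9, 24.8 and 24.7 (-0.22 ± 0.103). Both lay below NC without overlap and neither passed FDR 0.05.

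The unfolded protein response was level at its chaperones, with Hspa5 (BiP) at 864, 815 and 825 CPM against 813, 808 and 848. Of 39 tested genes of this and the integrated stress response, 5 lay below NC without overlap and 1 above, against 4.36% and 4.68% of all genes tested. The lower ones included Chac1, a glutathione-degrading ATF4 target, with 31.2, 33.3 and 28.8 CPM against 38.9, 36.3 and 35.3, and Ddit3 (CHOP), with 17.4, 17.3 and 18.1 against 20.1, 21.2 and 19.2. Chac1 had an unadjusted p of 0.0401 and Ddit3 one of 0.0982 in edgeR's test.

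Cell cycle lists differed in sign but hardly in size. Of 35 tested genes of G2 and mitosis 28 lay below 0, with a median of -0.03, and of 35 S phase genes 22 lay above 0, with a median of 0.02. All 70 of these genes had an interval inside 0.6. Prim1, a primase subunit, had 107, 103 and 108 CPM against 112, 120 and 117 and was the only one with an unadjusted p under 0.05.

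In cholesterol synthesis, Nsdhl had 13.5, 12.4 and 14.7 CPM against 19.9, 19.7 and 14.7, which overlap, while 9 of 25 tested genes lay above 0. At an unadjusted p under 0.05 in edgeR, 0 of the 25 were higher and 2 lower, where 1.84% and 1.52% of all genes tested were. In the list of glycolysis, glucose and hypoxia, 14 of 27 tested genes lay above 0, with a median of 0.004. Of these 27, 2 were higher and 1 lower at an unadjusted p under 0.05 in edgeR. Egln1, an oxygen-sensing prolyl hydroxylase, stood above NC with 129, 122 and 125 CPM against 114, 110 and 112 (0.17 ± 0.0600), as did Slc2a1. Vegfa, a hypoxia target, had 60.01, 54.8 and 57.5 CPM against 65.2, 58.7 and 68.2. These differences did not pass FDR 0.05.

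The lists that hold Lmnb2, Ptbp2 and Smpd4 did not follow them. In the nuclear envelope list, Lmnb2 and Lmna, which encodes lamins A and C (123, 100.1 and 106 CPM against 101, 95.3 and 99.1), were the only members at an unadjusted p under 0.05, and 15 of 26 tested genes lay above 0. Of 48 tested splicing regulators 18 lay above 0, with a median of -0.03, and Ptbp2 alone had an unadjusted p under 0.05. In sphingolipid metabolism 18 of 32 lay above 0, with Smpd4 and the ceramide synthase Cers4 (48.3, 48.1 and 46.2 CPM against 49.3, 51.2 and 56.6) lower at an unadjusted p under 0.05.

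The remaining response lists held no gene at an unadjusted p under 0.05. Above 0 lay 7 of 12 tested neuronal activity genes, 20 of 28 apoptosis genes, 12 of 18 genes of NF-kB and interferon and 2 of 4 metal response genes, with medians of 0.04, 0.04, 0.06 and -0.01. Vgf, a secreted neuropeptide precursor induced by activity, had 933, 768 and 752 CPM against 779, 700.4 and 797. Tnfaip3, the NF-kB target A20, had 2.26, 2.64 and 2.49 CPM against 1.56, 1.82 and 0.619, at an unadjusted p of 0.0630 in edgeR. The metallothionein Mt2 had 0 reads in all 6 libraries.

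Housekeeping lists moved with single libraries. All 13 mRNAs encoded by the mitochondrial genome had a log2 fold change below 0 with a median of -0.09, yet their median in the 3 I0-E0 libraries was -0.45, 0.25 and -0.15 relative to NC. The mitochondrial share of counts was 1.24%, 2.03% and 1.51% in I0-E0 and 1.78%, 1.60% and 1.82% in NC, and without I0-E0 replicate 2 the median was -0.27. The direction therefore differed between libraries of the same group. Ribosomal protein genes (51 of 76 above 0) and proteasome subunits (28 of 35 above 0) had medians of 0.03 each, and in both lists I0-E0 replicate 1 was the high library, with medians of 0.12 and 0.11 relative to NC.

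Markers of cell identity overlapped between the groups. None of the 21 tested genes of 27 for N2A and neuronal identity had an unadjusted p under 0.05. Of 43 markers of other cell types 6 had enough reads to test. The summed level of the leukocyte, epithelial and erythroid markers was 0.264 to 3.24 CPM in each library, and 4 of 8, 3 of 6 and 3 of 6 of these markers had 0 reads in all 6 libraries. Endothelial markers summed to 24.3 CPM in I0-E0 replicate 3 against 9.18 to 13.9 in the other 5, with Pecam1 at 17.3 CPM there and 4.28 to 7.89 CPM elsewhere, and whether this bears on other genes was not tested. Fibroblast markers summed to 5.40 to 9.72 CPM in I0-E0 and 5.29 to 8.197 CPM in NC, and glial markers to 9.84 to 11.2 and 9.33 to 13.9 CPM.

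**Figure D4:**
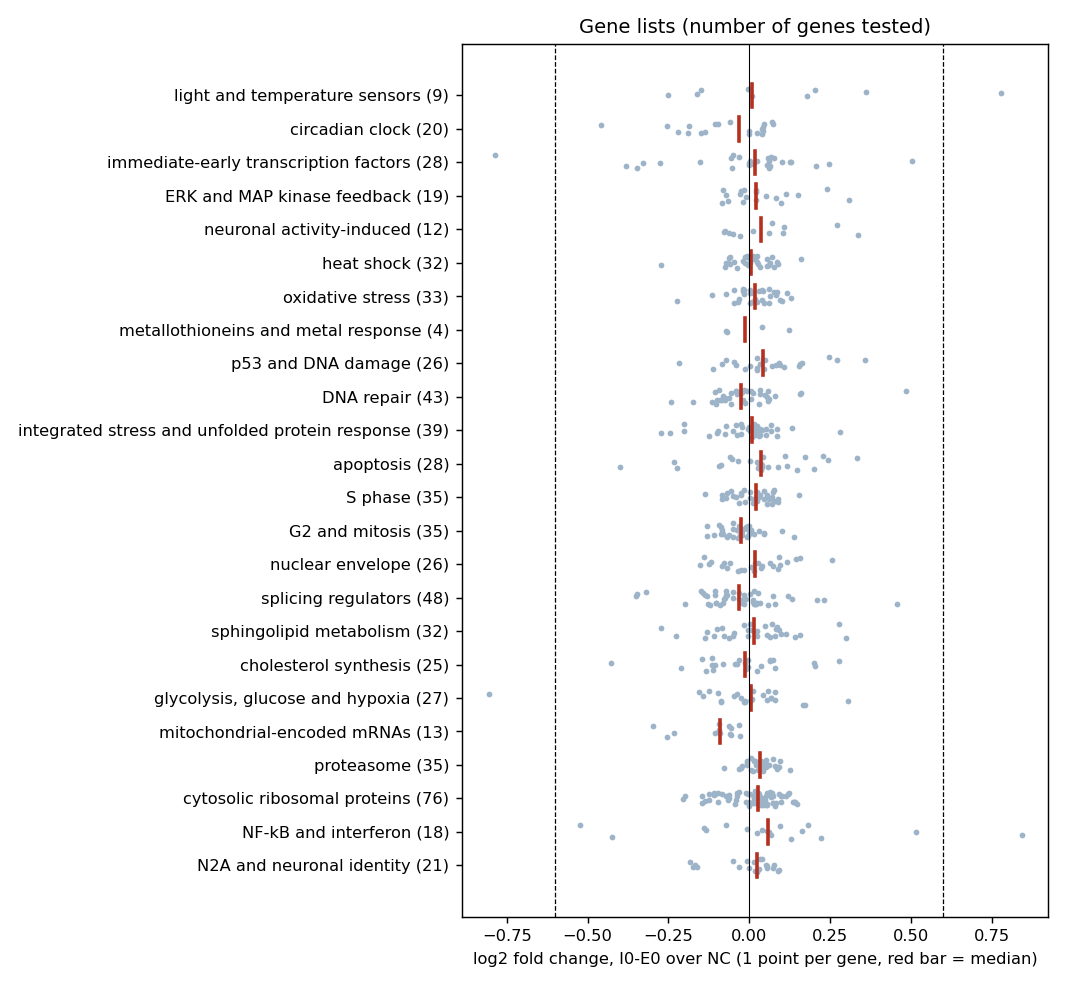
Log2 fold change of I0-E0 over NC for every tested gene of the 24 lists with at least 3 tested genes. Red bars are medians, dashed lines mark -0.6 and 0.6, and the number of genes tested follows each name. The medians lie between -0.09 and 0.06, and 0 genes passed FDR 0.05.

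Since the deposited values are per transcript, isoforms could be compared as well. Of 32149 transcripts, 1 (0.00311%) passed FDR 0.05 in edgeR's test on its own level, Arhgap22-205, with 0 reads in the 3 I0-E0 libraries and at most 20 in NC. Its share of the gene was 12.1% to 13.2% in NC and 6.67% to 19.0% in the 9 more exposed libraries. The call was lost with limma-voom, with the replicate block and in the 6 libraries alone. At an unadjusted p under 0.05 in edgeR, 472 transcripts were higher (1.47%) and 477 lower (1.48%). Isoform usage asks whether a transcript moved against the rest of its gene. Of 7498 genes with at least 2 transcripts tested, 2 (0.0267%) passed FDR 0.05, Hnrnpa2b1 and Flna, and 455 (6.07%) had an unadjusted p under 0.05, a count that became 109, with fewer genes tested, in the 6 libraries alone. Neither gene differed in its total: Hnrnpa2b1 had a log2 fold change of 0.01 ± 0.0539 and Flna one of -0.03 ± 0.0633.

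Hnrnpa2b1 encodes hnRNP A2/B1, an RNA-binding protein of splicing and transport (chromosome 6, 51460932 to 51469894, minus strand). Its transcript Hnrnpa2b1-209, annotated as a target of nonsense-mediated decay, made up 0.711%, 0.768% and 2.79% of the gene in I0-E0 and 3.32%, 5.01% and 7.38% in NC (means 1.42% ± 1.18 and 5.24% ± 2.04, SD, n = 3), at 79 to 682 reads a library and a gene FDR of 3.62e-04. All 3 I0-E0 libraries were below NC. In the 9 more exposed libraries the share was 1.92% to 5.82%, so the low values of I0-E0 replicates 1 and 2 lay below all 9. The transcript differs from Hnrnpa2b1-202 in exactly 1 exon, a 120-base coding exon (6, 51464428 to 51464547) of 40 whole codons. Hnrnpa2b1-202 holds this exon and Hnrnpa2b1-209 skips it. It is shown because it sets this pair apart, while the call compared Hnrnpa2b1-209 with all the rest of its gene. The exon is in capitals, between 15 bases of its neighbours in lower case, read 5′ to 3′ on the minus strand of GRCm38 from GENCODE vM21:
Hnrnpa2b1 glycine exon: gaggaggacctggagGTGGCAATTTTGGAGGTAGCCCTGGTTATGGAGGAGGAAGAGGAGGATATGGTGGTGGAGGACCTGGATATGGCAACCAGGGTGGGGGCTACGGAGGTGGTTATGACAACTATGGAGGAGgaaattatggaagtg

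The repeated GGN triplets belong to the glycine-rich low-complexity part of the protein. Hnrnpa2b1-202 had shares of 8.27%, 5.32% and 4.02% in I0-E0 and 5.63%, 3.58% and 0.898% in NC, which overlap. The sum of both transcripts was 8.99%, 6.08% and 6.81% against 8.94%, 8.60% and 8.27%, so that the pair as a whole overlapped between the groups. Over all annotated transcripts that hold or skip the exon, it was included in 51.7%, 51.5% and 47.1% of the estimated counts in I0-E0 and in 53.3%, 46.2% and 54.8% in NC, an overlap too, and the 36-base exon that separates hnRNP B1 from A2 (6, 51467391 to 51467426) in 23.3%, 26.3% and 22.3% against 23.1%, 25.6% and 22.7%. Hnrnpa2b1-210, a more abundant transcript of the gene, had shares of 34.6%, 31.5% and 34.9% in I0-E0 and 29.6%, 31.4% and 23.2% in NC, above NC by a narrow margin in 1 library (usage FDR 1 in edgeR). The call for the gene was lost with limma (FDR 0.0514), in the 6 libraries alone (0.0859) and without I0-E0 replicate 2 (0.0528).

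Flna encodes filamin A, a crosslinker of actin filaments (chromosome X, 74223461 to 74249820, minus strand). Flna-202 made up 3.14%, 1.65% and 3.39% of the gene in I0-E0 and 0.627%, 0.197% and 0.168% in NC (2.72% ± 0.942 and 0.330% ± 0.257), at a gene FDR of 0.0216. The I0-E0 libraries lay above NC, and the 9 more exposed libraries covered both, from 0.0985% to 4.14%. Flna-202 skips a coding exon of 24 bases, or 8 codons (X, 74232967 to 74232990), that the main transcript Flna-201 holds, shown in the same way:
Flna exon: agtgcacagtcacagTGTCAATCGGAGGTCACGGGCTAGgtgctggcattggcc

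Skipping of this exon did not set the groups apart. It was included in 68.8%, 73.9% and 74.5% of the estimated counts in I0-E0 and in 74.0%, 76.8% and 74.6% in NC, at 8158 to 11460 reads a library. Flna-203 skips the same exon and differs from Flna-202 by its first exon and a few bases at exon ends. The sum of both was 30.2%, 25.7% and 24.7% against 25.6%, 22.7% and 24.8%. Flna-203 alone made up 27.05%, 24.02% and 21.3% in I0-E0 and 24.9%, 22.5% and 24.7% in NC. Since it holds most of the sum, the overlap of the sum cannot show whether Flna-202 differed. The Flna call was lost with limma (FDR 0.188), with the gene-level F-test (0.0792) and without I0-E0 replicate 1 or 3 or NC replicate 2 or 3 (0.0679 to 0.194).

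Among genes that did not pass as a whole, those of smallest p showed transcripts that were near 0 in 1 group. Some of these transcripts passed FDR 0.05 when tested singly for usage, as Sbno1-201 did (0.0365 in edgeR's test). The share of Sbno1-201 was 0%, 0.0988% and 0% in I0-E0 and 18.4%, 28.4% and 16.6% in NC (gene FDR 0.0568), with a median of 0.0892% and a range up to 27.2% in the 9 more exposed libraries. It differs from Sbno1-216 in its first exon and a few bases of the last, and the sum of both was 59.1%, 58.3% and 58.3% against 61.5%, 55.7% and 54.2%. Here too the pair overlapped between the groups. Sbno1 encodes a helicase-like transcriptional regulator, and its total had a log2 fold change of -0.05 ± 0.0676.

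For Napb and Patz1, inclusion of a single exon did not overlap between the groups, which is given as a description without a test. Napb encodes beta-SNAP, a factor of vesicle fusion in neurons (chromosome 2, 148693985 to 148732467, minus strand). Its 47-base coding exon (2, 148707159 to 148707205), whose length is 15 codons and 2 bases and therefore shifts the frame when skipped, was included in 99.9%, 100% and 100% of the estimated counts in I0-E0 and in 91.4%, 50.3% and 75.6% in NC, at 280 to 428 reads a library. The NC libraries spread widely, and the 9 more exposed libraries ranged from 51.0% to 100%, so that I0-E0 lay at the end of a wide range. The gene did not pass (FDR 0.114).
Napb exon: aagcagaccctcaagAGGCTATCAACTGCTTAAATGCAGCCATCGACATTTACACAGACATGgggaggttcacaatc

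Patz1 encodes a zinc-finger transcription factor with a BTB domain (chromosome 11, 3288874 to 3309083, plus strand). Patz1-202 held 22.8%, 26.8% and 21.1% of the gene in I0-E0 and 0.628%, 0% and 0% in NC. In the more exposed libraries it held 4.16% to 17.7%, and all 9 lay between the groups, a place that the choice of the gene for its gap favours. Its 73-base exon (11, 3306288 to 3306360; 24 codons and 1 base) was included in 33.3%, 38.9% and 29.7% of the estimated counts in I0-E0 and in 8.70%, 7.08% and 21.3% in NC, at 205 to 341 reads a library. The sum of Patz1-202 and Patz1-205 did not overlap either, with 27.5%, 37.1% and 25.5% against 5.12%, 14.4% and 16.4%. In the more exposed libraries inclusion ran from 7.05% to 40.02%. The gene had an FDR of 0.0568, and it passed when transcripts under 10% of their gene were left out (FDR 1.72e-04). Tested singly for usage, Patz1-202 passed in edgeR's test (FDR 0.0365) and is among the transcripts counted below.
Patz1 exon: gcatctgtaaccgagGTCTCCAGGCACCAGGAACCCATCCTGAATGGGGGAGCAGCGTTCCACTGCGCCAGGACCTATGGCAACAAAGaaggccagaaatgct

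**Figure D5:**
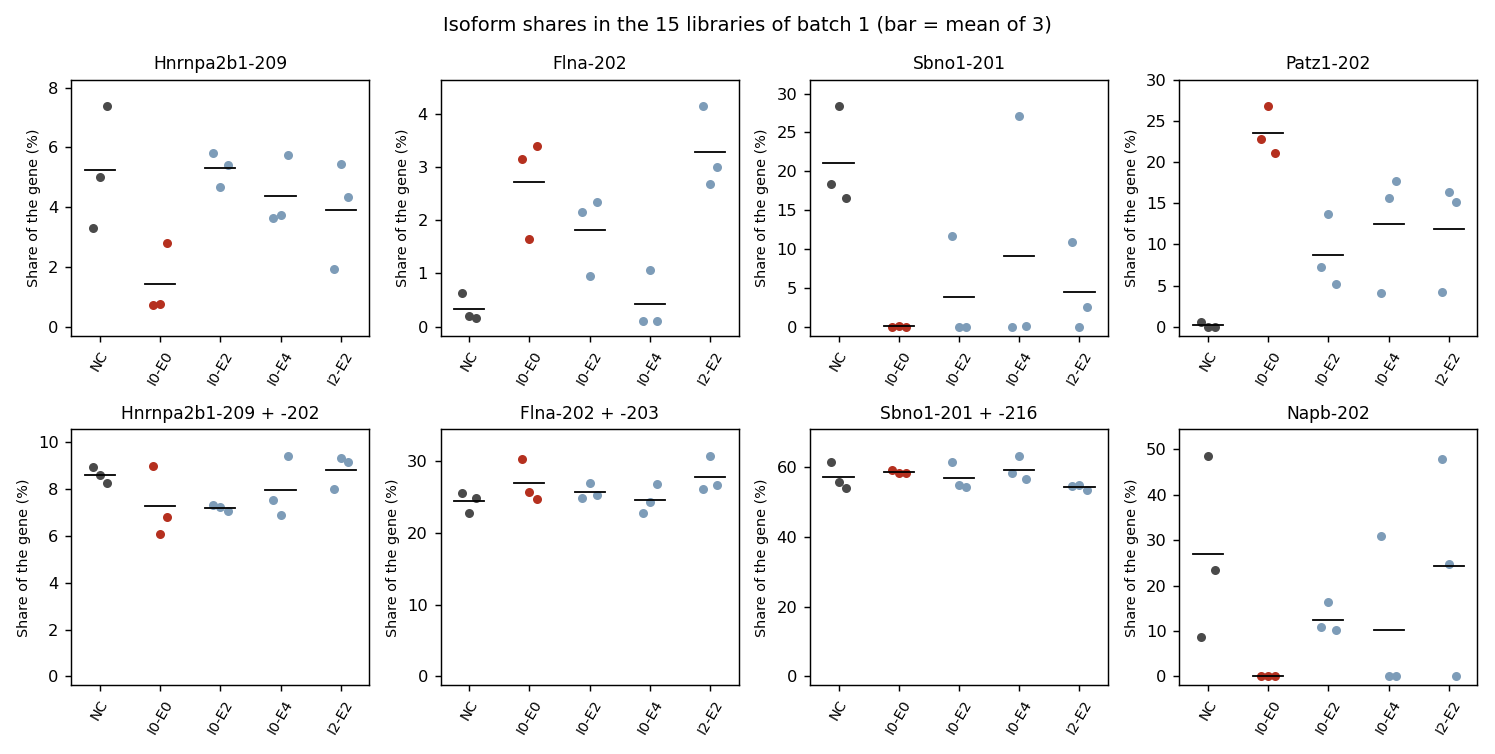
Share of the gene's estimated counts (%) in the 15 libraries of batch 1, with I0-E0 in red, NC in dark grey, the more exposed groups in blue and bars for the mean of 3. Single transcripts separate I0-E0 from NC, as for Hnrnpa2b1-209 with at most 2.79% against at least 3.32%. The sums of the pairs shown (Hnrnpa2b1-209 with Hnrnpa2b1-202, Flna-202 with Flna-203, Sbno1-201 with Sbno1-216) overlap. These pairs were picked after their values were seen. Flna-203 holds most of the Flna sum, so that its overlap cannot show whether Flna-202 differed. The sum of Patz1-202 and Patz1-205, which is not plotted, does not overlap. Patz1-202 and Napb-202 are shown singly.

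Counts of 0 were frequent among such transcripts. Of 27601 transcripts tested for usage 21 passed FDR 0.05 (0.0761%), 9 of them higher in I0-E0, and 19 of the 21 had 0 reads in at least 1 of the 6 libraries, against 27.9% of all those tested. The 21 became 3 with the replicate block, 9 without I0-E0 replicate 2, and 7 and 4 without NC replicates 2 and 3. Shares lay above NC in all 3 I0-E0 libraries for 4.21% and below for 4.79% of transcripts. The estimated counts divide reads that fit several transcripts, and no measure of that uncertainty was used here.

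Finally, I0-E0 was compared with the 3 more exposed groups, a contrast in which the NC libraries enter only the filter, the scaling and the estimate of the spread. Of 12296 genes 0 (0%) passed FDR 0.05 in edgeR, limma-voom or DESeq2, and in edgeR 357 were higher (2.9%) and 187 lower (1.52%) in I0-E0 at an unadjusted p under 0.05. Without I0-E0 replicate 3 the 357 became 194. The smallest p belonged to Atmin, a cofactor of the kinase ATM, with 73.8, 79.5 and 79.2 CPM in I0-E0 and a lowest, median and highest value of 59.4, 65.3 and 68.9 CPM in the 9 libraries (log2 fold change 0.26 ± 0.0478, FDR 0.619, and 0.0451 without the filter on low counts). Its NC mean was 72.1 ± 1.14 CPM.

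Others on this side were Cnr1, the cannabinoid receptor CB1, with 71.1, 74.1 and 72.0 CPM against 56.4, 62.3 and 65.9 (lowest, median, highest), and Mief1, a receptor for mitochondrial fission factors, with 102.1, 100.3 and 110.9 against 83.4, 88.6 and 96.8. For both, I0-E0 lay above all 9 libraries, as chosen by the rule, which 0.52% of genes did. In NC their means were 71.5 ± 4.30 and 99.9 ± 9.11 CPM, within 1 SD of I0-E0. Lower in I0-E0 were Grhpr, a glyoxylate reductase, with 9.69, 8.96 and 9.47 CPM against 10.00, 11.8 and 14.0, and Arhgap45, a GTPase-activating protein, with 32.3, 28.9 and 30.6 against 33.6, 35.2 and 37.2, a pattern that 0.22% of genes had. Each of the 12 genes so named had an FDR of 0.619 or more in edgeR's test.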

How the data were processed

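Per the labels and the methods of the study, polyA RNA of whole wells was extracted 1 h after exposure. The authors quantified each library with Salmon and deposited, per transcript, an estimated count and a TPM value. For the Salmon version and its index, nothing was given in the sources used here. TPM values were used for no test. Of 107368 transcript identifiers, 98.6% were found in GENCODE vM21 (GRCm38), and the rest, 0.664% to 0.715% of counts, were left out. Estimated counts were summed per gene and rounded.

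All 15 libraries of batch 1 (5 groups of 3) were fitted together with group as the factor, using edgeR 4.0.16 in R 4.3.3 (filterByExpr at a minimum count of 10, TMM, quasi-likelihood test, Benjamini-Hochberg over all features, threshold 0.05). The same was done per transcript. Isoform usage was tested with diffSpliceDGE and Simes' method. A share is the percent of a gene's counts, and levels are CPM on TMM library sizes. Exon inclusion was computed from the counts of transcripts that hold the exon or span it by an intron. Alternatives used limma 3.58.1 and DESeq2 1.42.0, other normalization, filters, samples and a replicate block. Tables were made with pandas 2.3.3 and numpy 2.4.6 and plots with matplotlib 3.10.9, under Python 3.11.15. The tests were also run on simulated counts with known changes. That simulation did not model the division of reads among transcripts, so it cannot vouch for the isoform calls.

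Genes were named by rule: all past FDR 0.05, otherwise the 12 of smallest p per direction (6 against the more exposed groups) with at least 5 CPM, no overlap and at least 95% of 31-base words in no other gene. Genes with a Gm number, a Rik clone name, a -ps pseudogene name or a symbol shared with another gene were left out of this choice. List genes were named as the most abundant member, those of smallest p and members needed to account for the list. For isoforms, these were genes past FDR 0.05 and the 8 of smallest p with at least 10 CPM, a share of 10% to 90% and no overlap. The comparison, the lists and the rules were chosen with earlier results of these data known. Sequences are from GENCODE vM21 transcripts. The exons and transcript pairs shown, and members named beyond the rule, were picked after their values were seen. Library totals ran from 5586106 to 8577854 counts over the 15 libraries. The 95% intervals rest on the spread between libraries in edgeR's fit, while limits for counts of 0 cover counting error only.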

Additional observations from a re-analysis of the deposited data

How the results depend on the processing

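The count of 0 genes past FDR 0.05 for I0-E0 against NC was also found with RLE normalization, limma-voom and the 6 libraries alone, and it became 1 with DESeq2 and 110 without the filter on low counts, of which 100 had under 95% of their 31-base words to themselves and 85 were higher in I0-E0. Leaving out single libraries gave 0 to 1, with 1 without NC replicate 1 (Gm2446) or 2 (Fam220a, FDR 2.32e-04 in edgeR). Fam220a was also the DESeq2 call and was among the 110 genes called without the filter. Against the 3 more exposed groups the count stayed at 0, also without single libraries (0 to 0), and became 120 without the filter. The transcript count of 1 became 0 without the filter, with limma-voom, in the 6 libraries alone and with the replicate block, and 0 to 7 without single libraries (0 without I0-E0 replicate 1 or 2 or NC replicate 3, 4 without I0-E0 replicate 3, 7 and 3 without NC replicates 1 and 2). The 2 genes of isoform usage became 8 with limma, 20 in the 6 libraries alone, 1 with transcripts of at least 10% of their gene and 5 with the F-test. They became 2 to 12 without single libraries, namely 10, 5 and 9 without I0-E0 replicates 1, 2 and 3 and 12, 6 and 2 without NC replicates 1, 2 and 3. The causes were not tested. Of the 110 genes called without the filter, 103 were also tested with it. The share minimum of 10% leaves out Hnrnpa2b1-209 and Flna-202 themselves, so that it cannot bear on those calls.

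Deviations of same-numbered I0-E0 and NC libraries had correlations of -0.03, 0.12 and 0.09 over 9089 genes. Those of differently numbered libraries ran from -0.22 to 0.12, a range that holds the same-numbered values. So few correlations cannot settle whether the numbers pair the libraries. With the replicate block the count was 0 for genes in both comparisons and 2 for isoform usage, again Hnrnpa2b1 and Flna.

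At an unadjusted p under 0.05, leaving out I0-E0 replicate 2 gave 357 higher and 343 lower genes against NC, and DESeq2 gave 140 and 107. Against the more exposed groups, the 187 lower genes became 441 without I0-E0 replicate 1, 299 without I0-E4 replicate 3 and 288 without I2-E2 replicate 3. Of 492 values of named genes under the alternatives, 486 kept their size within 1 SE and their side of the threshold. Without the filter, Ptbp2, Dock9 and Lztr1 passed FDR 0.05 against NC and Atmin against the more exposed groups. The 455 genes of isoform usage at an unadjusted p under 0.05 became 707 with limma, 109 in the 6 libraries alone and 94 at the share minimum, both with fewer genes tested, and the 21 transcripts past FDR 0.05 became 3 with the replicate block, 1 at the share minimum and 4 to 22 without single libraries. Genes under 5 CPM and transcripts with few reads are limited by depth.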

Other observations

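Isoforms of the stress and housekeeping lists were also examined. Of 484 list genes tested for isoform usage, 1 passed FDR 0.05, Hnrnpa2b1, and 20 (4.13%) had an unadjusted p under 0.05, against 6.07% of all genes tested. Tpr, a nuclear pore basket protein, had a share of its transcript Tpr-203 of 55.2%, 50.5% and 48.7% in I0-E0 and 25.1%, 44.0% and 30.3% in NC (gene FDR 0.652). Rps19, a ribosomal protein of the small subunit, had a share of Rps19-202 of 17.4%, 12.9% and 22.1% against 9.53%, 11.2% and 12.5% (0.763), and the ERK-responsive factor Etv4 one of Etv4-212 of 13.6%, 9.44% and 10.9% against 0%, 3.04% and 4.51% (0.785). In these 3 the groups did not overlap, as in 4.21% of transcripts above NC, and they were chosen after their values were seen.

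Repeat-like genes spread widely among the I0-E0 libraries. Besides Gm10800, the genes Gm10719, Gm10718, Gm10801, Gm10721, Gm10717 and Gm21738 reached 57.3 to 241 CPM in I0-E0 replicate 3, which was 3.35 to 5.46 times the highest of the other 14 libraries, and in each of these 6 the next highest value was in I2-E2 replicate 2. Gm12918, none of whose 31-base words is its own, had 87.8, 0.791 and 2.12 CPM in I0-E0 and 7.82, 9.57 and 84.1 CPM in NC. Of the 1373 genes seen only in I0-E0 replicate 3, 710 were protein-coding and 466 processed pseudogenes, and 101 were olfactory receptors. Its share of retained-intron transcripts, 2.48%, was within the 2.22% to 2.98% of the other 14 libraries.

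Gene length moved with single libraries. Relative to NC, the 2273 shortest of 9089 genes with at least 10 CPM had a median of 0.09 in I0-E0 replicate 1, -0.02 in replicate 2 and 0.01 in replicate 3, and the 2272 longest -0.09, 0.02 and -0.03 on the log2 scale.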
